A study of Xenopus laevis with 6 samples.

Results

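The Frizzled receptor family of Xenopus laevis was described here in explants of the gastrula neuroectoderm. Its members were chosen by name, as the rows of the deposited table for fzd1 to fzd10 with the ending .L or .S, which mark the homeologs of the long and short subgenomes of this allotetraploid frog. Of 20 possible names, 17 had a row among the 42549 rows analysed here, 8 of them .L and 9 .S. Both homeologs were present for 7 genes (fzd3, fzd5, fzd6, fzd7, fzd8, fzd9 and fzd10), and 3 genes had 1 row each (fzd1.L, fzd2.S and fzd4.S). The names fzd1.S, fzd2.L and fzd4.L had no row among those analysed here.

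The study compared stretched with control explants, 3 samples each, to ask which genes respond to mechanical tension. Both groups were wild type. Neuroectoderm pieces were cut at stage 11.5 according to the sample labels, joined in pairs with their inner sides facing, and pinned to agarose for 3 h, either under stretch or without it, before poly(A) RNA was sequenced. Each explant holds several cell layers and cell types, and in such bulk RNA a smaller number of cells of a type and less RNA per cell cannot be told apart. The only level given per gene is the authors' average log2 CPM (reads of a gene scaled to a common library size, on a log2 scale) over stretched and control samples together. No values of single samples were used, so that none of the levels below carries a spread between replicates. The fold changes and p-values that the authors computed for stretched against control explants were not used either. For these reasons no difference between stretched and control explants is given for any Frizzled gene, and the levels describe the explants of both groups pooled.

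Frizzled proteins are receptors that cross the cell membrane repeatedly and bind Wnt proteins through a cysteine-rich domain outside the cell. With the co-receptors Lrp5 and Lrp6 they act through Dishevelled to stabilise beta-catenin. With partners such as Vangl2 and Celsr1 they act in planar cell polarity, the pathway behind the convergent extension that lengthens the dorsal mesoderm and neural plate of the frog gastrula. By sequence they fall into the subfamilies fzd1/fzd2/fzd7, fzd3/fzd6, fzd5/fzd8, fzd9/fzd10 and fzd4.

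The average log2 CPM keeps track of the reads behind low rows. The lowest value of the table, -2.08, was shared by 12476 rows without a read. Rows that stood 1 step higher took 6 distinct values, 1 for each library, and the size of the step (0.12 on the log2 scale) corresponds to 1 read in all libraries together when 2 reads had been added to each library. On this scale all 9458 rows of 1 to 20 reads came out as whole numbers (within 0.1 read), and the mean library held about 8.45 M counted reads. Read totals over the 6 libraries were therefore estimated for each Frizzled row, with an exact 95% Poisson interval. Above 20 reads the same formula was extended without a check against whole numbers, so that the larger totals are approximate. These intervals cover counting error only and not the spread between samples. Reads were not divided by transcript length, since no lengths were used here, so that reads of different genes are given side by side without an order of expression.

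All 17 Frizzled rows stood above the lowest value, and 14 had an average log2 CPM above 0. Their median average log2 CPM was 3.94, against -0.86 over all rows and 1.62 over the 30073 rows with at least 1 read. Of the Frizzled rows 82.4% were above a log2 CPM of 0, against 44.4% of all rows. All rows include 12476 without a read, while every Frizzled row had reads. Of the 6666 homeolog pairs of the table with reads in both rows, 4716 had both rows above 0. Of the 7 Frizzled pairs, 5 did so. Together they held about 32705 reads, or 645 CPM above the lowest value. The rows fell into 2 ranges that lay apart. In the upper range 12 rows had between 367 and 16446 reads, and in the lower range 5 rows had between 8 and 61. Those with few reads were fzd1.L and the homeologs of fzd5 and fzd9.

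**Figure D1:**
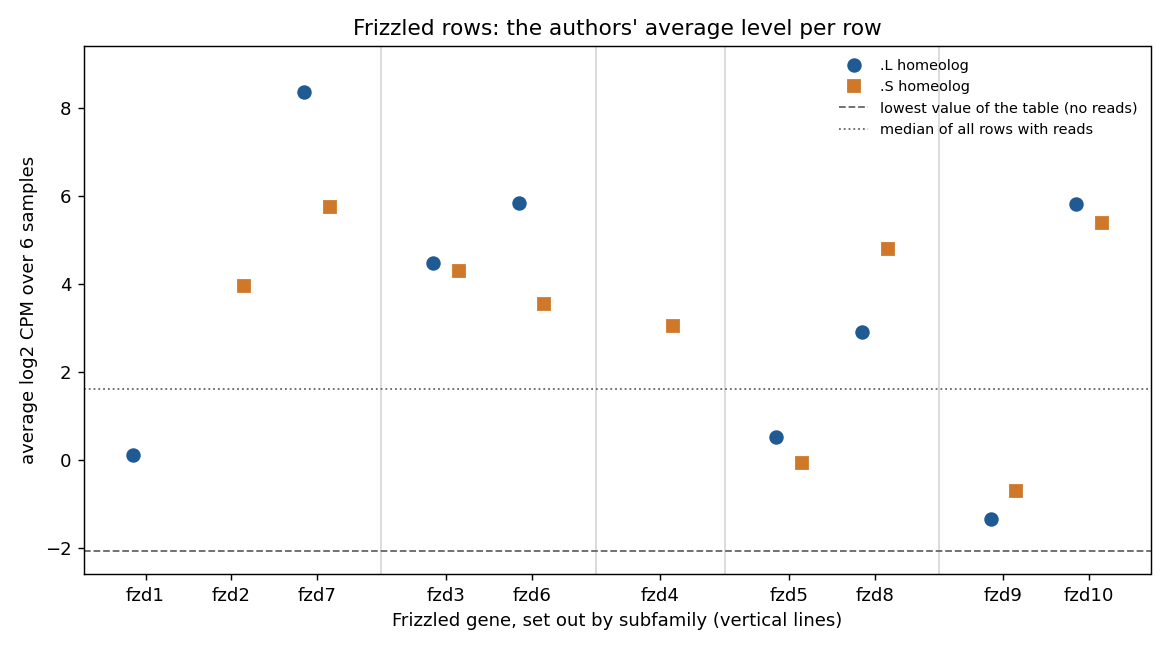
Average log2 CPM over the 6 samples (vertical axis) of each Frizzled row, set out by subfamily along the horizontal axis, with .L homeologs as blue circles and .S homeologs as orange squares. The dashed line marks the lowest value of the table (-2.08) and the dotted line the median of all rows with reads (1.62). fzd7.L stands at 8.34, and the 5 rows of fzd1, fzd5 and fzd9 lie below the dotted line.

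The subfamily of fzd1, fzd2 and fzd7 received 61.0% of the Frizzled reads, most of them for fzd7. In Xenopus, fzd7 is needed for convergent extension and for the separation of mesoderm from ectoderm at gastrulation. fzd7.L had an average log2 CPM of 8.34, which corresponds to 325 CPM, or about 16446 reads (95% interval 16196 to 16699). It took 50.3% of all reads counted for Frizzled rows and stood at the 99.0th percentile of all rows of the table. Its homeolog fzd7.S had an average log2 CPM of 5.74, or 53.1 CPM above the lowest value (51.1 to 55.1). Both fzd7 rows together held 58.5% of the Frizzled reads. A share of reads and a rank among rows of different genes follow transcript length as well as expression.

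fzd2.S, whose mammalian counterpart is a receptor for Wnt5a, had an average log2 CPM of 3.94 and about 765 reads (712 to 821). The third gene of this subfamily, fzd1.L, had few reads, with an average log2 CPM of 0.12. It rested on 43 reads in all 6 libraries (31.1 to 57.9), which is 7.16 reads per library.

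Both genes of the fzd3/fzd6 subfamily were detected from both subgenomes. In Xenopus, fzd3 acts in the eye field and in neural crest induction, and mouse Fzd3 and Fzd6 are known for planar polarity. The average log2 CPM was 4.48 for fzd3.L and 4.29 for fzd3.S, with 1119 reads (1054 to 1187) and 983 reads (923 to 1046). These intervals do not overlap, but they lie close together. fzd6.L had an average log2 CPM of 5.84 and 2886 reads (2782 to 2993), and fzd6.S one of 3.54 and 576 reads (529.9 to 625). In this subfamily the homeologs of fzd6 were thus far apart, and those of fzd3 were not.

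fzd4.S was the only row of its gene. In mammals, Fzd4 is the receptor of Norrin as well as of Wnt proteins. Its average log2 CPM was 3.03, with 402 reads (364 to 443).

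In the fzd5/fzd8 subfamily, fzd5 had few reads from either homeolog, and the homeologs of fzd8 were far apart. In Xenopus, fzd8 is transcribed in the organizer and later in the anterior neural plate, and fzd5 in the developing eye. fzd8.L had an average log2 CPM of 2.90 and 367 reads (330.4 to 407), and fzd8.S one of 4.78 and 1381 reads (1309 to 1456). fzd5.L stood at an average log2 CPM of 0.52, with 61 reads (46.7 to 78.4), and fzd5.S at -0.08, with 36 reads (25.2 to 49.8). The intervals of the fzd5 homeologs overlap. fzd5.L had a mean of 10.1 reads per library.

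In the last subfamily both fzd10 rows were well covered, and both fzd9 rows had few reads. In Xenopus, fzd10 is known from the dorsal neural tube. fzd10.L had an average log2 CPM of 5.81 and 2823 reads (2720 to 2929), and fzd10.S one of 5.38 and 2102 reads (2013 to 2194). fzd9.L had an average log2 CPM of -1.34, which rests on 8 reads in all 6 libraries (3.45 to 15.8). The average log2 CPM of fzd9.S was -0.71, resting on 19 reads (11.4 to 29.7). With 1.33 and 3.17 reads per library, fzd9.L and fzd9.S were detected, but any comparison of their levels rests on very few reads.

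For the 7 genes with both homeologs, the share of the pair's reads that went to .L was computed after subtraction of the lowest value. Reads of 50 bp that fit both homeologs could have been counted for either or for neither. The homeologs may also differ in transcript length, so that these shares describe counted reads. Over the 6666 homeolog pairs of the table with reads in both rows, the median .L share was 54.5%, and .L was higher in 56.3%. Among the Frizzled pairs .L was higher in 5 of 7.

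The .L homeolog held most of the reads of fzd7 and fzd6. Its share was 85.9% for fzd7 (exact 95% binomial interval 85.4 to 86.4) and 83.4% for fzd6 (82.1 to 84.6). On the log2 scale, .L minus .S was 2.61 for fzd7 and 2.30 for fzd6, or 6.12 and 5.01 times the reads. Differences larger than these in absolute size were found in 17.3% and 21.3% of all pairs. The opposite split was found for fzd8, where .L had 21.0% of the reads (19.1 to 23.0), 0.266 times those of .S. The difference of -1.88 for fzd8 was exceeded in size by 29.0% of all pairs. All 3 of these splits lay between the 5th and the 95th percentile of the table (-2.83 and 3.74), in which 52.0% of pairs differed by more than 1 on the log2 scale, as did 3 of the 7 Frizzled pairs.

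**Figure D2:**
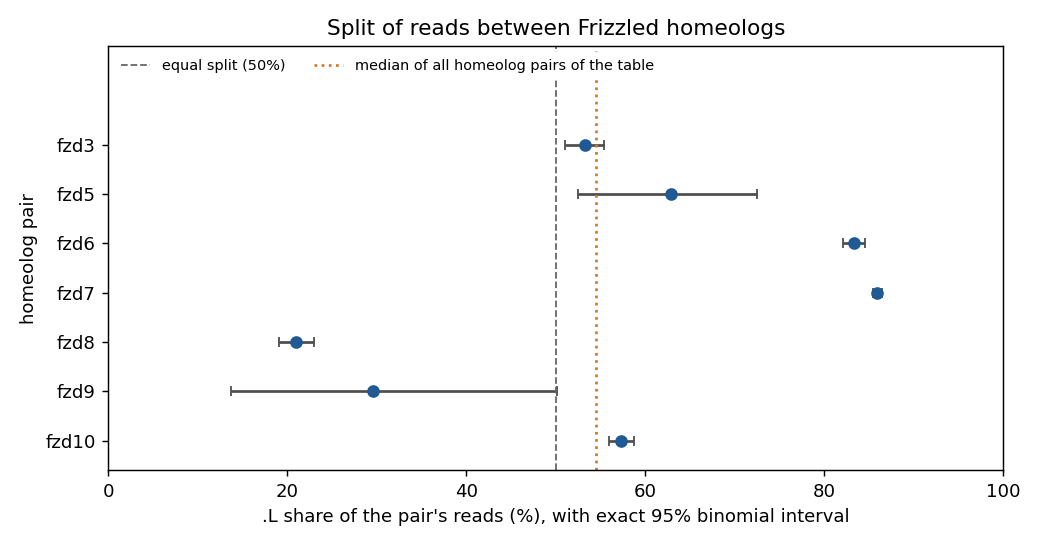
Share of a homeolog pair's reads counted for .L (horizontal axis, %), for the 7 Frizzled genes with both homeologs. Points are estimates from reads summed over the 6 libraries and bars exact 95% binomial intervals for counting error. The dashed line marks an equal split and the dotted line the median of all pairs (54.5%). fzd6 and fzd7 lie above 80%, fzd8 at 21.0%, and the bar of fzd9 reaches the equal split.

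fzd3 and fzd10 were split nearly evenly. The .L share was 53.2% for fzd3 (51.1 to 55.4) and 57.3% for fzd10 (55.9 to 58.7), with differences of 0.19 and 0.42 on the log2 scale. For fzd5 it was 62.8%, with a wide interval (52.5 to 72.5). For fzd9 it was 29.6%, and here the interval (13.8 to 50.2) includes an equal split.

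**Figure D3:**
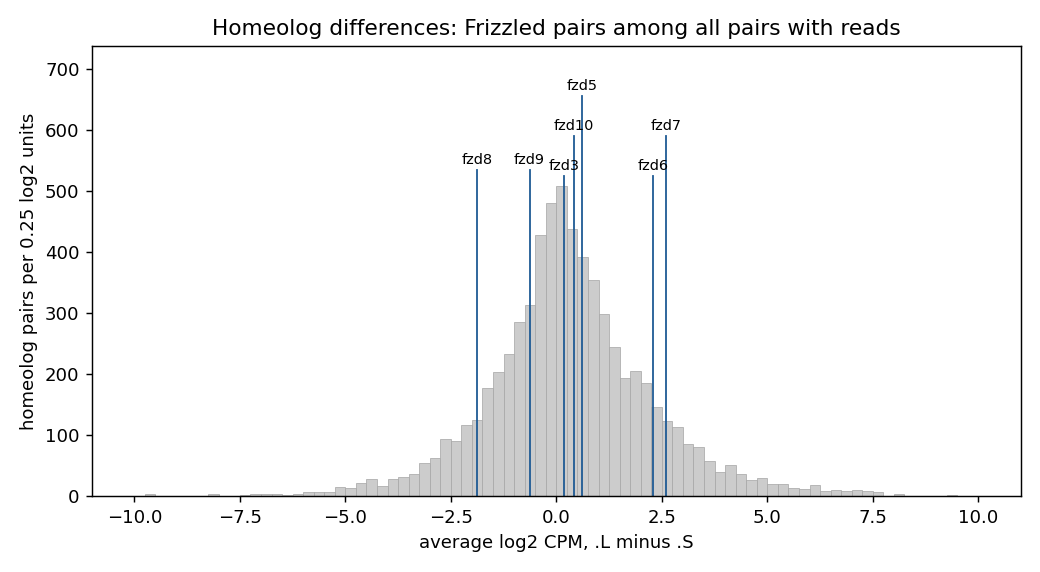
Average log2 CPM of .L minus that of .S (horizontal axis) for all 6666 homeolog pairs with reads in both rows, as the number of pairs in each bin of 0.25 log2 units (grey bars), with the 7 Frizzled pairs as blue lines. The Frizzled pairs run between -1.88 (fzd8) and 2.61 (fzd7), inside the 5th to 95th percentile of all pairs (-2.83 to 3.74).

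In the RefSeq annotation of Xenopus laevis v10.1, used for names and gene order only, all 17 Frizzled rows matched a symbol. Of all 42549 rows, 39961 did so. The sides of several pairs carry the same coding genes, for example ccnyl1 and plekhm3 beside both homeologs of fzd5, baalc and cthrc1 beside both of fzd6, and rimbp2 and tmem132d beside both of fzd10. Of the 17 rows 1, fzd3.S, overlapped another annotated gene, LOC121394327, so that reads of these genes may not be fully separable.

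Genes that act with Frizzled receptors were placed beside the family, again as reads not divided by length. Both co-receptor rows were detected, lrp6.L with an average log2 CPM of 5.94 and lrp5.L with 3.01. The Wnt receptors of other classes were all above a log2 CPM of 5, including ptk7 (8.23 for .L and 6.34 for .S) and ryk (7.28 and 6.76). Among the Dishevelled adaptors, dvl2.L stood at 5.82 and dvl3.L at 5.87, whereas dvl1.L, singled out after its value was seen, rested on 3 reads. All 11 rows of planar polarity partners were above a log2 CPM of 1, against 38.8% of all rows, and their median was 5.58. Among these the atypical cadherin celsr1 had 8.31 (.L) and 7.36 (.S), and vangl2 had 6.96 and 6.09. Smoothened, the Hedgehog pathway relative of Frizzled receptors, had 6.11 for smo.L and 1.97 for smo.S.

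Of 13 rows for regulators of Frizzled turnover at the membrane, 8 (61.5%) were above a log2 CPM of 0, against 44.4% of all rows. Above 1 there were 6 (46.2%), against 38.8% of all rows. The median of these 13 rows was 0.36, against -0.86 over all rows and 1.62 over rows with at least 1 read. The ubiquitin ligase gene znrf3, whose product removes Frizzled receptors from the membrane, had 2.44 (.L) and 2.56 (.S), and lgr4, a receptor for R-spondins, 1.37 and 3.93. Of 12 rows for secreted proteins with a Frizzled-type domain, 8 (66.7%) were above a log2 CPM of 0 and 6 (50%) above 1. Their median was 1.42. They include sizzled, an inhibitor of Chordin breakdown, with 6.70 (szl.L) and 7.58 (szl.S), and sfrp2 with 5.58 and 5.94. The symbols ror1, lgr6, rspo4 and celsr3 had no row among those analysed here.

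**Figure D4:**
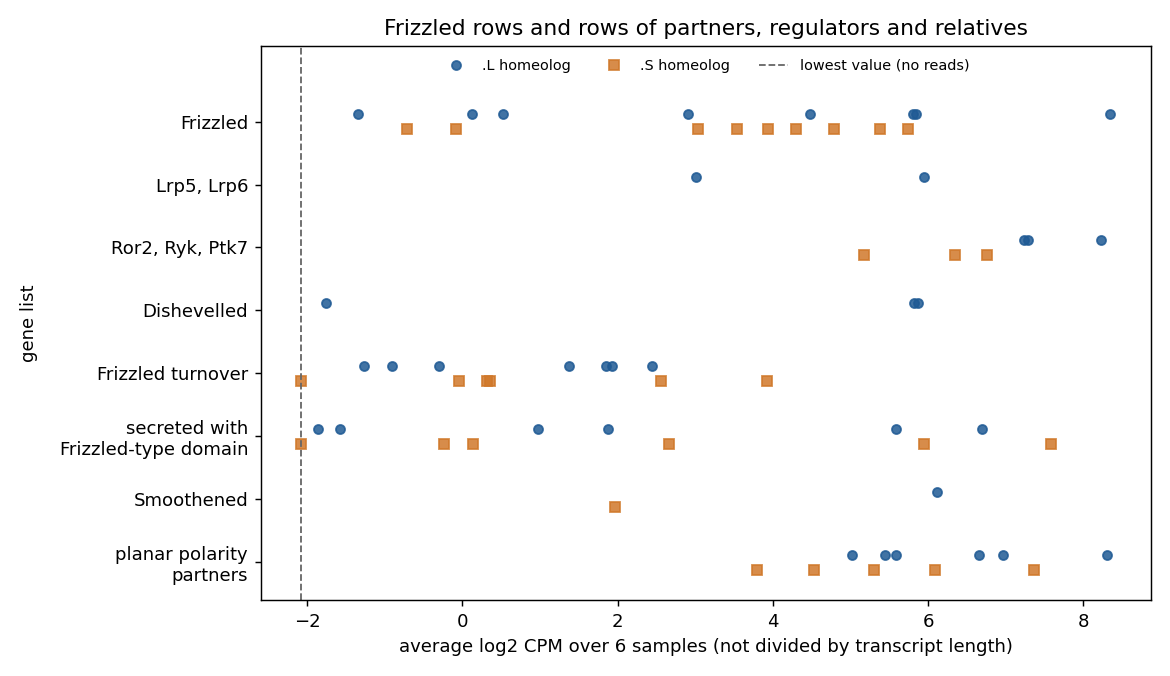
Average log2 CPM over the 6 samples (horizontal axis, not divided by transcript length) of the 17 Frizzled rows and of the rows of 7 lists of partners, regulators and relatives (vertical axis), with .L homeologs as blue circles and .S homeologs as orange squares. The dashed line is the lowest value of the table. The lowest row of the planar polarity partners lies at 3.80, while the turnover and secreted lists each reach down to the lowest value.

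The tissue label was compared with marker genes. All 15 rows of neural markers had an average log2 CPM above 0 (median 5.92), against 44.4% of all rows. Among them were sox3.S at 8.07, zic1.S at 7.03 and sox2.L, named for its common use as a neural marker, at 5.84. The lowest neural rows were those of ncam1, with 2.84 (.L) and 1.39 (.S). Of the epidermal markers 14 of 15 rows were above 0, with a median of 8.03, krt12.5.S at 9.89 and grhl3.L at 9.23. The lowest epidermal rows were those of tp63, with -1.41 (.L) and 3.11 (.S). Of the mesoderm and organizer markers 9 of 11 rows were above 0 (median 1.69), with tbxt.S at 6.79 and not.L at 5.23. The rows of gsc, msgn1, myf5 and tbx6 were lower, between -0.34 (msgn1.S) and 1.84 (gsc.S). According to the paper, the explants included the marginal zone, where tbxt is expressed at the middle gastrula stage. Of the endoderm markers 10 of 12 rows were above 0 (median 0.74), but only 5 (41.7%) were above 1, against 38.8% of all rows. The highest were a2m.S at 6.78 and vegt.S at 6.15, and no row of sox17a, sox17b.1, gata4, gata6 or foxa2 was above 1.26. The list symbols krt5.7, myod1, chrd and sox17b.2 had no row among those analysed here. Rows of the epidermal, mesoderm and endoderm lists thus had reads beside those of the neural list. Whether each of these tissues was present in the explants was not tested. Above a log2 CPM of 0 the shares of the mesoderm (81.8%) and endoderm (83.3%) lists were alike. Above 1 they were 72.7% and 41.7%, against 38.8% of all rows. In both lists the high levels were those of few genes, tbxt and not in the first and a2m and vegt in the second. The part of each cell type in the Frizzled levels was not tested.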

How the data were processed

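Poly(A) RNA of 3 stretched and 3 control samples was sequenced. According to the paper, the authors mapped reads of 50 bp with STAR and used DESeq2. Other tools (TopHat2, HTSeq, DESeq and edgeR) are listed by the submitters, without versions. Neither genome build nor annotation is stated in the sources used here. The authors deposited 1 table with an average log2 CPM per gene, pooled over samples, beside a fold change, F, p-value and FDR for stretched against control explants. The columns of that comparison are the authors' own findings and were not used, and no test was made.

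From the log2 CPM, reads were estimated as 12 times (CPM divided by the CPM of the lowest value, minus 1), where 12 is the number of 1-read steps contained in the lowest value. Code for this conversion was tested on data simulated with the same scheme, 6 libraries and 2 reads added to each. Such a test cannot show that the scheme holds for the deposited values. On those values the conversion was checked for rows of up to 20 reads only. Intervals were exact Poisson (reads) and Clopper-Pearson (shares), both at 95%. Python 3.11.15, numpy 2.4.6, scipy 1.17.1, pandas 2.3.3 and matplotlib 3.10.9 were used. The members and gene lists were chosen with earlier results of these data known. All Frizzled rows were named, and of each other list the 2 genes of highest level, with sox2 and dvl1 added. Lower members of the neural, epidermal, mesoderm and endoderm lists were also named, after their values were seen. Levels per length, which had been planned, were not computed because transcript lengths were not used here, so this choice rests on log2 CPM. Alternatives were no subtraction of the lowest value, other thresholds and ranks among rows with reads.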

Additional observations from a re-analysis of the deposited data

How the results depend on the processing

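The number of Frizzled rows counted as expressed was 14 above a log2 CPM of 0, 12 above 1 and 17 above the lowest value of the table. Over all rows the shares were 44.4% above 0, 38.8% above 1 and 70.7% above the lowest value. Without subtraction of the lowest value, all 7 homeolog shares stayed on the same side of an equal split and within their intervals, and the share of fzd9.L moved most (39.2%, against 29.6%). Ranks by log2 CPM, not divided by transcript length, were lower among rows with reads only than among all rows. They moved by over 10 percentile points for 7 Frizzled rows, namely to the percentiles 38.2 for fzd1.L, 62.0 for fzd4.S, 41.4 for fzd5.L, 36.5 for fzd5.S, 60.8 for fzd8.L, 22.4 for fzd9.L and 30.7 for fzd9.S, because 12476 rows without reads leave the ranking. In an alternative chosen after seeing the data, the median of .L minus .S over pairs with both rows above a log2 CPM of 0 was 0.20, as over all pairs with reads (0.21). No paired analysis was possible because the deposited levels are pooled over samples, and for the same reason count tests of the groups, other normalizations and fits without a replicate were not run. Levels per transcript length were not run either. Depth limits fzd1, fzd5 and fzd9, all with under 100 reads per row.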

Other observations

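The low end of the average log2 CPM shows how many libraries stand behind it. The 2346 rows with a single read took 6 values between -1.96302 and -1.96271, each shared by 340 to 446 rows. This number equals that of the samples in the series. The mean library of 8.45 M counted reads follows from the same lowest value, if 2 reads had been added to each library. It is not the sequencing depth, since the paper gives a larger number of reads generated per sample. Which of the 6 values belongs to which sample cannot be told from the table.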
